A study of Mus musculus with 22 samples.

Results

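The spread between animals was measured in 11 whole-heart libraries of total RNA, from 3 control, 4 case and 4 treatment mice, out of 22 samples in the series. The other 11 samples are single-end libraries and were not analysed here. For each gene, the spread of a group was the standard deviation (SD) of log2 CPM, read counts scaled to the size of the library, over the libraries of that group, so an SD of 1 means that animals typically lay a factor of 2 from their group mean. The spread of the case group was then set against that of the treatment group and of the control group. It was computed for 14050 of the 21898 genes in the deposited table, those with enough reads to be compared.

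The study exposed mice to chronic psychological stress and sequenced their hearts to find transcripts that respond to the stress and to a drug given with it. All mice were males aged 6 weeks from a single supplier, allocated at random, and neither the labels nor the methods name a strain or an engineered allele. Control mice did not go through the stress procedure and were kept on a cycle of 12 h light and 12 h dark. Case mice went through 3 weeks of changing stressors. Treatment mice went through the same stressors and received JWH133, an agonist of the cannabinoid type 2 receptor (CB2R), in a dose of 10 mg/kg injected into the peritoneum 2 times per day over 21 days. No injection of vehicle is described for the control or case mice, so the drug and the act of injecting cannot be told apart. Mice of all 3 groups went through behavioral tests, among them forced swimming and tail suspension, 24 h after the end of stress. The methods do not say whether hearts were taken before or after these tests, and their part in the spread was not tested. Neither the hour at which hearts were taken nor the days on which libraries were made is stated in the labels or methods.

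Genes differ in how steady they are between animals. Transcripts under the control of circulating hormones, feeding, the time of day or an infection follow the state of the animal at death, whereas structural and housekeeping transcripts are usually held in a narrow range. Stress hormones act through the glucocorticoid receptor, which switches on genes such as Pdk4, Fkbp5 and Ddit4 in heart muscle. Interferons act on a set of antiviral genes that is switched on as a block, and collagens of the heart are made by fibroblasts and rise and fall together.

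Depth was alike, with 29628337 to 32078770 counts in the control, 29436126 to 34412849 in the case and 29410822 to 30940449 in the treatment libraries. Between 4.85% and 6.75% of the counts fell on genes of the mitochondrial genome. Markers of cardiomyocytes, including Myh6, Tnnt2 and Ttn, summed to 133800 to 144500 CPM in the control, 111800 to 125200 in the case and 132500 to 150900 in the treatment libraries, so every library was heart muscle by its defining genes. Markers at 0 in all libraries were Mpo, Dntt, Rag1, Myh4, Cldn18, Scgb1a1, Scgb3a2 and Sftpd, which mark neutrophil precursors, thymocytes, fast skeletal fibres and lung epithelium. Other markers had enough reads to be tested, 10 of neutrophils, 4 of thymocytes, 8 of skeletal muscle and 3 of lung epithelium. The markers at 0 therefore do not show that such cells were absent. Scores of the 3 lung markers ran from -1.01 to 0.94 in the case libraries. In whole tissue, fewer cells of a type and less RNA per cell cannot be told apart.

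Hearts of case mice differed from each other more than hearts of treatment or control mice did. The median SD over all genes was 0.12 in the control, 0.24 in the case and 0.14 in the treatment group, where counting error alone would give a median of 0.06 in each. An SD above 1 was found for 135 genes (0.961%) in the control, 651 genes (4.63%) in the case and 225 genes (1.6%) in the treatment group. The biological coefficient of variation, which is the spread left after counting error in a model of the counts, was 8.46%, 26.4% and 14.2%. An SD from 3 libraries falls below the true value more often than an SD from 4, and its median is 0.833 of the true value against 0.888, which lowers the control values relative to the others. Without case library d, the median SD of the case group was 0.19 and 495 genes had an SD above 1, still above both other groups.

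**Figure D1:**
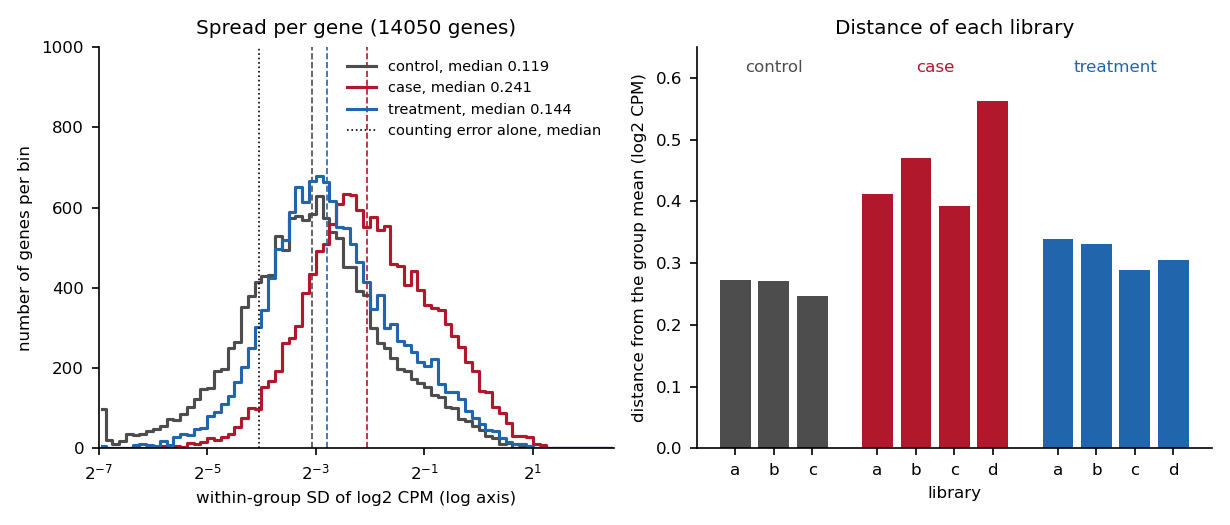
Left, number of genes per bin of the within-group SD of log2 CPM (log axis) in the 3 groups, with smaller SDs counted in the leftmost bin, dashed lines at the medians and a dotted line at the median SD that counting error alone gives. Right, distance of each library from its group mean in log2 CPM. The curve of the case group is shifted to the right, with a median of 0.241 against 0.144 and 0.119, and its 4 libraries are all farther from their mean than any other library.

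Each library was also given 1 distance, the root mean square over genes of its deviation from the group mean, scaled for the number of libraries. These distances were 0.272, 0.272 and 0.247 log2 units for control libraries a to c. They were 0.412, 0.471, 0.392 and 0.562 for case libraries a to d and 0.338, 0.332, 0.289 and 0.305 for treatment libraries a to d. The groups did not overlap. The mean distance was 0.459 ± 0.0763 (SD, n = 4) in the case, 0.316 ± 0.0229 (SD, n = 4) in the treatment and 0.263 ± 0.0145 (SD, n = 3) in the control group. By two-sided exact permutation tests, p was 0.0286 for case against treatment and 0.0571 for each comparison with the control group, in each case the smallest p that these group sizes allow. The exact permutation p adjusted over the 3 comparisons was 0.0571 throughout. Distances of a group share its mean and so are not independent, which these tests do not take into account. On the first principal axis of the deviations lay 56.2% of the within-group variance in the control, 58.5% in the case and 41.8% in the treatment group, where 3 libraries have 2 axes to share it over and 4 libraries have 3. Along the case axis libraries a and b lay on one side and libraries c and d on the other, with d farthest out.

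**Figure D2:**
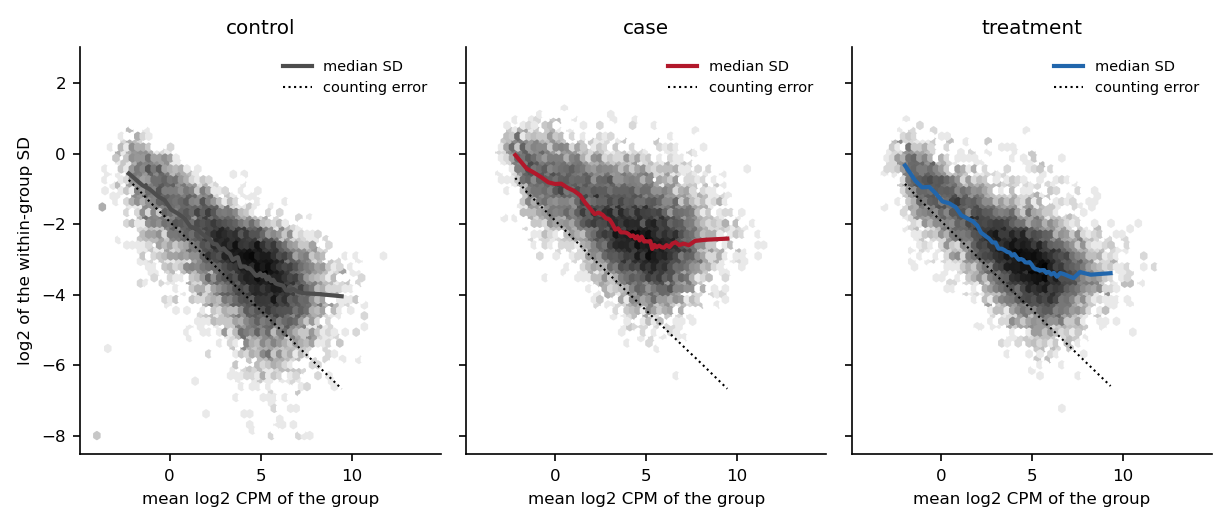
Log2 of the within-group SD against the mean log2 CPM of the gene in each group. Grey hexagons hold the 14050 genes (darker, more genes), the colored line is the median SD over 50 bins of like level and the dotted line the SD expected from counting error. The median line runs above the counting line in all groups, by the most in the case group at high levels.

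Gene by gene, the SD was higher in the case than in the treatment group for 74.3% of the 14050 genes, with a median SD ratio of 1.6. A ratio of within-group variances, with the denominator moderated over all genes, called a higher spread in the case group for 745 genes (5.3% of those tested) and a lower spread for 5 (0.0356%) at an adjusted p under 0.05. Against the control group, 80% of the genes had the higher SD in the case group, 2582 (18.4%) were called higher and 1 (0.00712%) lower. The treatment group had the higher SD than the control group for 61.7% of the genes, with 182 (1.3%) called higher and 1 (0.00712%) lower. Both comparisons with control share the same 3 control libraries, and both comparisons of the case group share its 4 libraries.

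These counts rest on few animals. Without case library d, 64 genes (0.456%) were called higher in the case than in the treatment group and 854 (6.08%) higher than in the control group. The count against the treatment group was 344 without treatment library c and 467 without treatment library d, and that against the control group was 4093 without control library b. Leaving out case library a, b or c instead gave 749, 540 and 963 calls against the treatment group. The 182 genes of the treatment against the control group became 59 (0.42%) without treatment library b, 303 without control library a and 404 without control library b. A plain F test that borrows nothing over genes called 1, 5 and 4 genes higher in the comparisons of case with treatment, case with control and treatment with control, and a limma test of absolute deviations called 689, 638 and 0. The 5 genes of lower spread became 0 without case library d or treatment library b or c, 1 without case library a or c, 2 without treatment library a and 9 without case library b.

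Functions were compared by 59 lists of genes, 41 of functions and 18 of cell types. A list is described by the median SD of its members and by how many were called, beside the values over all genes. Leaving out a library also changed the share of all genes called. Higher in case than in control were 6.08% without case library d, 15.2% without b, 19.2% without c and 29.1% without control library b. Higher in case than in treatment were 0.456% without case library d and 2.45% without treatment library c. Without treatment library b 0.42% were higher in treatment than in control. Among lists with 10 or more genes tested, those with the highest median SD in the case group were mesothelium and epicardium (1.12 over 11 genes), fetal and hypertrophy markers (1.03 over 15), the 13 genes the study singled out (0.996), glucocorticoid-induced genes (0.91 over 30), MHC class II presentation (0.91 over 11), chemokines and their receptors (0.83 over 30) and collagens and matrix (0.81 over 43). The first place of mesothelium and epicardium rested on case library b, without which its median was 0.49, and the median of fetal and hypertrophy markers was 0.66 without case library d. In the treatment group the highest were neutrophils (1.21 over 10 genes), platelets (1.16 over 10) and interferon-stimulated genes (1.02 over 38), against a median of 0.14 for all genes. Without treatment library b the neutrophil median was 0.78, beside 0.77 in the case group, and without treatment library d the platelet median was 0.74. The control group had its highest medians in platelets (0.665) and neutrophils (0.643), whose members have few reads there, and counting error alone gave medians of 0.564 and 0.652. Control medians rest on 3 libraries, and 35 of 52 lists with 10 or more genes moved by over 1.5 times when 1 control library was left out. Erythroid cells, cytosolic ribosomal proteins and MHC class I presentation also had a higher median in the treatment than in the case group, and each of these orders turned without 1 library. The erythroid median was 0.36 without treatment library b against 0.47 in the case group, the ribosomal median 0.105 without treatment library a against 0.158, and the MHC class I median 0.23 without treatment library c against 0.42.

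**Figure D3:**
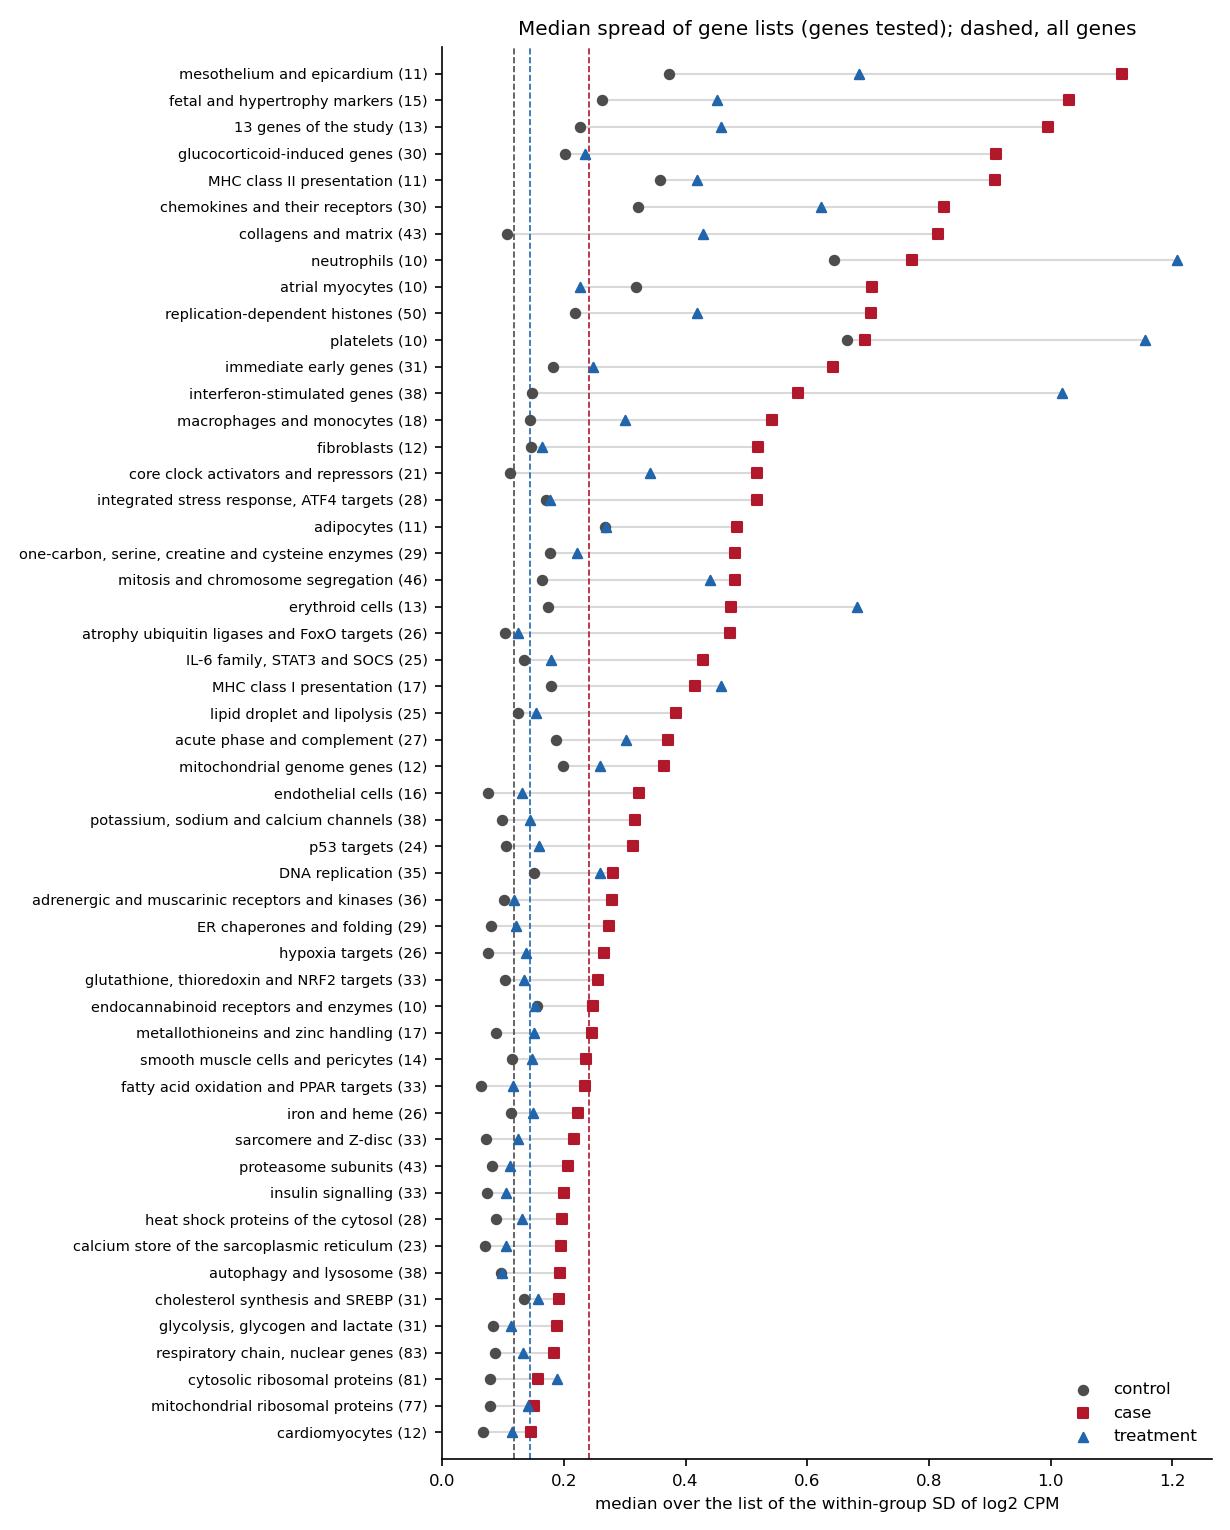
Median over each gene list of the within-group SD of log2 CPM in the control (circles), case (squares) and treatment group (triangles), for the lists with 10 or more genes tested, whose number is in brackets. Dashed lines mark the medians over all genes, 0.119, 0.241 and 0.144. Most squares lie farthest right, while triangles lead in interferon-stimulated genes, neutrophils, platelets, erythroid cells, MHC class I presentation and cytosolic ribosomal proteins, the last 2 and erythroid cells each by way of a single library.

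Glucocorticoid-induced genes varied among case mice as a block. Of 30 genes tested, 28 had a called higher spread than in the control group (18.4% of all genes did) and 21 a called higher spread than in the treatment group (5.3% of all genes). The median SD was 0.91 in the case group against 0.20 in the control and 0.23 in the treatment group. The score of the list, which is the median over its genes of the log2 CPM difference from the control mean, was 1.92, 1.79, 1.35 and 0.00 in case libraries a to d. It lay between -0.12 and 0.14 in the control and between -0.47 and -0.23 in the treatment libraries. Thus 3 case hearts were far above every other heart and the remaining case heart was at the control level. Without case library d the median SD was 0.42. The calls were then 10 against the control (6.08% of all genes) and 2 against the treatment group (0.456% of all genes).

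Pdk4, the kinase that turns off pyruvate dehydrogenase and so spares glucose, is the member with the most reads. Its log2 CPM was 8.83, 9.23 and 9.15 in the control, 12.13, 12.72, 10.14 and 9.07 in the case and 7.94, 8.39, 8.73 and 8.71 in the treatment libraries. Case libraries a and b stood far above all others and case library d lay inside the control range. Its SD in the case group was 7.99 times that in the control group (adjusted p = 2.4e-05) and 4.62 times that in the treatment group (adjusted p = 0.0065). Without case library d these were 6.34 times (adjusted p = 0.00049) and 3.67 times (adjusted p = 0.055). Ddit4, an inhibitor of mTORC1, had the highest spread of the list in the case group, with 8.43, 7.84, 6.69 and 4.29 in case libraries against 5.21 to 5.73 in the control libraries. Rasd1, a small G protein first found as dexamethasone-induced, had 5.13, 5.64, 4.58 and 1.68 in the case libraries and 1.02 to 1.77 in the treatment libraries. Lcn2, which encodes a secreted iron-siderophore carrier, had the lowest spread of the list in the case group (SD 0.22), with 4.03, 4.05, 4.21 and 3.70 there and -0.66 to 0.50 in the control libraries, so all 4 case hearts lay together above the control hearts.

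Genes of muscle atrophy and FoxO targets followed the same order of case hearts. Of 26 tested, 15 were called higher than in the control (18.4% of all genes) and 13 higher than in the treatment group (5.3% of all genes). Their median SD was 0.47 against 0.10 and 0.12, and 0.29 without case library d. Their score was 1.06, 0.77, 0.44 and -0.02 in case libraries a to d, and no other library went outside -0.07 to 0.04. Trim63, the ubiquitin ligase MuRF1 that marks thick filament proteins for the proteasome, had 9.76, 9.99, 8.33 and 7.06 in the case libraries, while the control and treatment libraries lay between 7.30 and 7.60. Case libraries a to c were above that range and d was below it. Its SD was 24.8 times that of the control group (adjusted p = 7.7e-06) and 10.9 times that of the treatment group (adjusted p = 0.0016), and the call against treatment remained without case library d (7.17 times, adjusted p = 0.024). Sesn1, a sestrin, and Klf15, a Krueppel-like factor of amino acid and lipid use, had SDs of 0.97 and 0.98 in the case group. Fbxo40, a ubiquitin ligase for IRS1, was steady, at 8.56 to 8.71 over the 4 case libraries. Without case library d, calls numbered 9 against the control (6.08% of all genes) and 2 against the treatment group (0.456% of all genes).

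Autophagy genes split within their list. The median SD of 38 genes was 0.19 in the case group, below the 0.24 of all genes, while 12 were called higher than in the control group, 31.6% of the list beside 18.4% of all genes, and 7 higher than in the treatment group, 18.4% beside 5.3%. Bnip3, a receptor for mitophagy, had 9.86, 9.60, 8.90 and 7.10 in the case libraries and 6.93 to 7.0 in the control libraries. Gabarapl1, which coats forming autophagosomes, had 8.98, 9.15, 7.89 and 6.58 in the case libraries, and Lamp1, a lysosomal membrane protein, had 8.67, 8.68, 8.68 and 8.71. In the case group the SD of Lamp1 was the lowest of the list (0.02), while that of Bnip3 was 1.24. The calls were 5 and 2 without case library d, beside 6.08% and 0.456% of all genes. Without control library b the count against the control group was 21, beside 29.1% of all genes.

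The 13 genes that the study singled out from its own comparison of these libraries also spread widely, and since they were picked on these samples their values are no independent evidence. Of these genes, 12 were called higher than in the control (18.4% of all genes) and 7 higher than in the treatment group (5.3%), with scores of 2.53, 2.51, 1.66 and 0.54 in case libraries a to d. Cdkn1a, the cyclin-dependent kinase inhibitor p21, had 8.39, 8.10, 6.58 and 4.72 in the case and 4.01 to 4.20 in the control libraries. Herpud1, a factor of ER-associated degradation, had 10.24, 10.56, 9.94 and 8.17 in the case libraries against 7.92 to 8.22 in the control libraries. Tfrc, the transferrin receptor that brings iron into cells, went the other way, with 3.86, 4.74, 4.32 and 7.23 in the case and 7.31 to 8.15 in the control libraries. Serpina3n, a secreted protease inhibitor of the acute phase, had 8.16, 8.14, 8.07 and 7.24 in the case libraries and the lowest spread of the list there (SD 0.44). Leaving out case library d left 6 calls against the control (6.08% of all genes) and 1 against the treatment group (0.456% of all genes).

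Stress pathways of the cell were less uniform. ER chaperones and folding factors had a median SD of 0.27 in the case group (0.18 without case library c). Of 29 genes, 13 were called higher than in the control group, 44.8% beside 18.4% of all genes (7 without case library c), and 4 higher than in the treatment group, 13.8% beside 5.3% (1 without case library d and 8 without treatment library a). Manf and Pdia4, a secreted ER stress factor and a disulfide isomerase, were highest in case library c, at 4.84 and 5.62, while the other 3 case libraries had 3.48 to 3.80 and 4.34 to 5.29. Targets of ATF4 in the integrated stress response had a median SD of 0.52. Of 28 genes, 12 were called against the control group, 42.9% beside 18.4% of all genes. Against the treatment group 6 were called, 21.4% beside 5.3% of all genes. Without case library d the median was 0.34 and the calls 6 and 2, beside 6.08% and 0.456% of all genes. Ppp1r15a, the phosphatase subunit that restores translation, had 5.92, 6.19, 5.08 and 3.92 in the case libraries and 3.58 to 3.70 in the treatment libraries. Of the antioxidant genes, Hmox1, which breaks down heme, had 6.89, 6.64, 4.09 and 3.69 in the case libraries against 3.11 to 3.49 in the control libraries, and Gclm, a subunit of the enzyme that starts glutathione synthesis, had 7.27, 7.46, 5.87 and 5.07 against 5.35 to 5.40. The call of Hmox1 against the treatment group remained without case library d (7.92 times, adjusted p = 0.017), that of Gclm did not (3.23 times, adjusted p = 0.093).

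**Figure D4:**
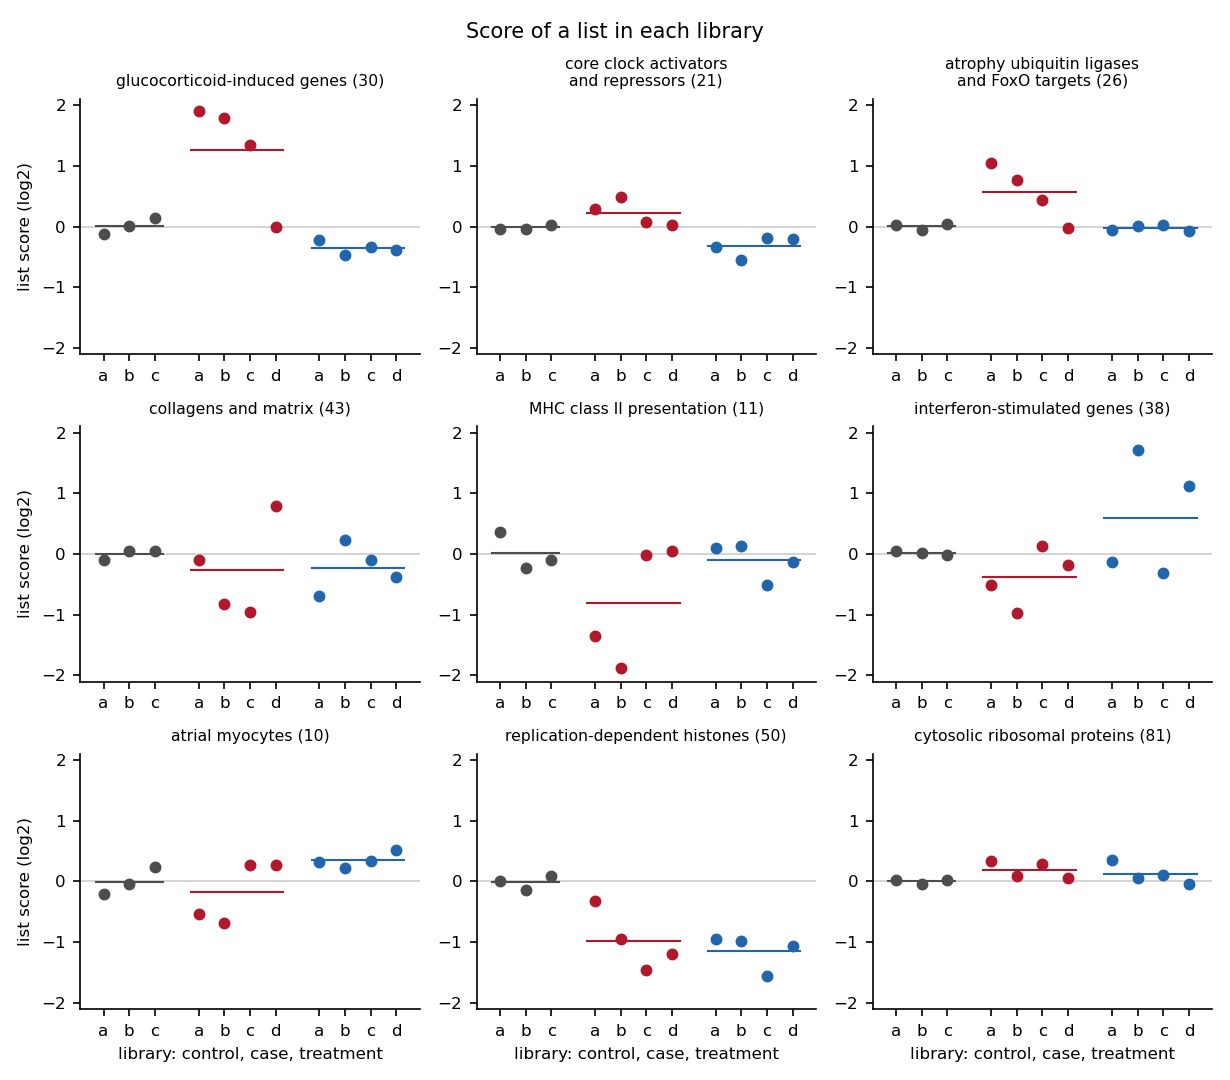
Score of 9 gene lists in each library, as the median over the genes of the log2 CPM difference from the control mean, with the number of genes in brackets and a line at the group mean (grey control, red case, blue treatment, all panels on the same scale). Case libraries spread from 1.92 to 0.00 in glucocorticoid-induced genes and from 0.80 to -0.96 in collagens and matrix, and treatment libraries from 1.72 to -0.31 in interferon-stimulated genes.

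The circadian clock, a loop of activators and repressors with a period of about a day, varied between hearts of both stressed groups. Of 21 core clock genes, 18 had a called higher spread in the case than in the control group (18.4% of all genes), and 14 did without case library d (6.08% of all genes). The treatment group also had 7 called higher than control (1.3% of all genes), which became 4 without treatment library b, 3 without treatment library d and 13 without control library b. Median SDs were 0.11 in the control, 0.52 in the case and 0.34 in the treatment group, and 5 genes, 23.8% beside 5.3% of all genes, were called higher in the case than in the treatment group (2 without case library d, 3 without case library a or treatment library c, 8 without treatment library b or d). The control median was close to that of all genes (0.12).

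Dbp, an output factor driven by CLOCK and BMAL1, had log2 CPM of 7.09, 6.95 and 6.98 in the control, 2.99, 3.13, 6.26 and 6.49 in the case and 5.87, 5.06, 6.09 and 5.55 in the treatment libraries. Case libraries a and b were lower than all others, and every stressed heart lay below the control hearts. Arntl, which encodes BMAL1 itself, ran in the opposite direction, with 1.37, 1.11 and 1.03 in the control, 5.89, 5.44, 3.90 and 2.11 in the case and 4.36, 5.01, 3.93 and 2.53 in the treatment libraries. Its stressed hearts did not overlap the control hearts in either group. Per3, a repressor of the loop, had 6.84 to 6.89 in the control, 3.94, 4.90, 6.20 and 6.89 in the case and 5.66, 5.41, 6.17 and 6.65 in the treatment libraries. The SD of Dbp in the case group was 26.4 times that of the control group (adjusted p = 5.4e-06) and 4.28 times that of the treatment group (adjusted p = 0.0081), and both calls remained without case library d (25.4 times, adjusted p = 1.8e-05, and 4.12 times, adjusted p = 0.04). For Arntl the treatment group was also called against the control group (5.82 times, adjusted p = 0.0054). The list score ranged only from 0.02 to 0.49 in the case and from -0.55 to -0.18 in the treatment libraries, since genes such as Dbp and Arntl have opposite signs in it.

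Immediate early genes, which answer hormones, stretch and nerve activity within minutes, had a median SD of 0.64 in the case group against 0.18 in the control and 0.25 in the treatment group. Of 31 genes, 22 were called higher than in the control group, 71% beside 18.4% of all genes (14 without case library d), and 9 higher than in the treatment group, 29% beside 5.3% (0 without case library d and 5 without treatment library c). Members did not share an order of hearts. Csrnp1, a nuclear regulator of transcription, had 6.89, 6.29, 5.42 and 4.31 in the case libraries, whereas Egr3 and Nr4a3, a zinc finger factor and an orphan nuclear receptor, were highest in case library d, at 1.79 and 5.35. Klf10, a TGF-beta-induced factor, had the lowest spread of the list (SD 0.11).

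**Figure D5:**
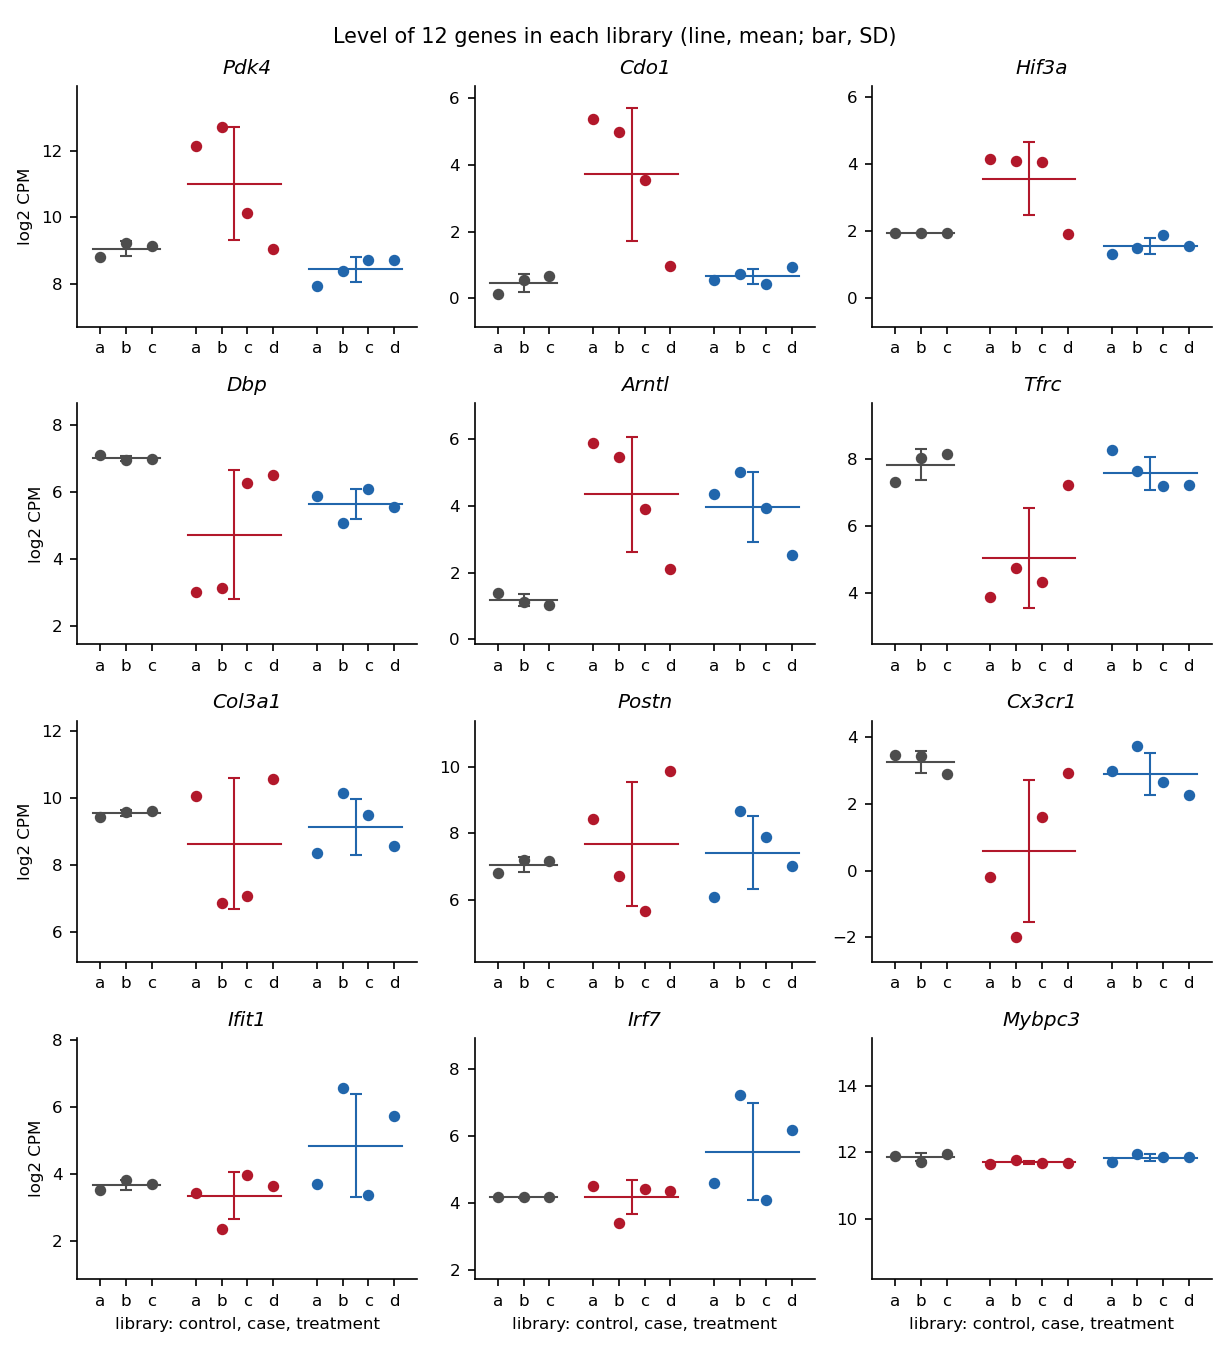
Log2 CPM of 12 genes in each library, with the group mean (line) and its SD (bar) in grey for control, red for case and blue for treatment, all panels over the same number of log2 units. Control libraries cluster tightly in most panels. Case libraries range from 2.99 to 6.49 in Dbp and from 6.86 to 10.57 in Col3a1, treatment libraries from 3.37 to 6.56 in Ifit1, and Mybpc3 is steady in all groups.

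Collagens and matrix genes varied between hearts of both stressed groups. Of 43 genes, 40 had a called higher spread in the case than in the control group and 24 in the treatment than in the control group, against 18.4% and 1.3% of all genes. Median SDs were 0.11, 0.81 and 0.43 in the control, case and treatment group. Case libraries a to d had scores of -0.09, -0.82, -0.96 and 0.80, and treatment libraries -0.69, 0.23, -0.10 and -0.38, whereas control libraries lay between -0.10 and 0.06. The order of case hearts was therefore not that of the glucocorticoid list. Against the control group 30 genes were called without case library d, beside 6.08% of all genes. Without treatment library b the count of 24 became 5, beside 0.42% of all genes, and the treatment median 0.27. Against the treatment group the case group had 9 genes called, 20.9% beside 5.3% of all genes, and 0 without case library d, 4 without treatment library c and 21 without treatment library b.

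Col3a1, a fibrillar collagen made by fibroblasts, had 9.45, 9.59 and 9.63 in the control, 10.07, 6.86, 7.07 and 10.57 in the case and 8.36, 10.16, 9.51 and 8.57 in the treatment libraries. Case libraries b and c lay below and a and d above the whole control range. Its SD was 21.1 times that of the control group in the case group (adjusted p = 2.8e-06, and 1.3e-05 without case library d) and 9.05 times in the treatment group (adjusted p = 0.00055, and 0.014 without treatment library b). Tnc, the matricellular tenascin C, ranged from 0.42 to 5.06 among case hearts and from 3.00 to 3.58 among control hearts. Sparc, a collagen-binding glycoprotein, was held at 9.55 to 9.57 in the control hearts and ranged from 7.97 to 9.37 in the case and from 8.34 to 9.29 in the treatment hearts, all below control. Col8a2 and Sfrp2, a short-chain collagen and a secreted Wnt-binding protein, were among the genes of highest spread of all in the case group (SD 2.68 and 2.26), with case library d highest, at 4.54 and 5.64. Lama2, the laminin chain of the muscle basement membrane, was the steadiest of the list, at 8.66 to 8.92 in the case libraries. The 12 fibroblast markers share Col1a1, Col1a2, Col3a1 and Postn with this list. They summed to 3245 to 3757 CPM in the control, 2556 to 7248 in the case and 2925 to 5035 in the treatment libraries, and their part in the matrix result was not tested.

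Fetal and hypertrophy markers had a median SD of 1.03 in the case, 0.45 in the treatment and 0.26 in the control group, with 12 of 15 called in the case against the control group, 80% beside 18.4% of all genes (6 without case library d), and 6 in the treatment against the control group, 40% beside 1.3% (2 without treatment library b and 3 without treatment library d). Postn, the matricellular periostin, had 8.43, 6.73, 5.67 and 9.86 in the case libraries, and Myh7, the slow myosin heavy chain of the fetal ventricle, had 7.19, 5.88, 7.76 and 9.02 against 3.86 to 4.88 in the control libraries. Nppb, which encodes BNP, had 6.62, 5.99, 2.99 and 6.14 in the case libraries, so case library c stood below the other hearts. Acta1, skeletal actin, had 7.36, 9.03, 6.04 and 8.11 there. These 4 genes gave 4 orders of the case hearts.

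MHC class II genes, which present peptides on macrophages, dendritic cells and B cells, had scores of -1.36, -1.89, -0.02 and 0.05 in case libraries a to d and -0.51 to 0.13 in the treatment libraries. Of 11 genes, 6 were called against the control group, 54.5% beside 18.4% of all genes, and 4 against the treatment group, 36.4% beside 5.3%, the latter 0 without case library d. Ciita, the master activator of these genes, had -0.76, -0.82, 1.68 and 2.10 in the case libraries and 1.77 to 2.54 in the control libraries, and H2-Ab1, a class II beta chain, had 3.38, 2.30, 4.93 and 5.0 against 4.60 to 5.31. Case libraries a and b were below every other heart in both genes.

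Macrophage and monocyte markers had 15 of 18 genes called against the control group, 83.3% beside 18.4% of all genes, and 5 without case library b. Their score was 0.51, -0.31, 0.58 and 0.46 in case libraries a to d and -0.09 to 0.04 in the control libraries, so the list as a whole was above control in 3 case hearts. Its member of highest spread, Cx3cr1, did not follow that score. Cx3cr1, the fractalkine receptor of resident macrophages, had 3.47, 3.43 and 2.87 in the control, -0.20, -1.98, 1.61 and 2.91 in the case and 2.25 to 3.74 in the treatment libraries. Clec12a, an inhibitory lectin of myeloid cells that is not in the list, had 2.23, 1.76 and 1.97 in the control and -1.10, -2.40, 0.82 and 2.14 in the case libraries. C1qc, a complement chain of macrophages, stayed at 4.77 to 5.44 in the case libraries, with the lowest spread of the list (SD 0.30). The summed level of the 18 markers was 736.0 to 798.9 CPM in the control, 730.2 to 1350 in the case and 812.7 to 979.3 in the treatment libraries. Chemokines and their receptors had 13 of 30 called against the control group, 43.3% beside 18.4% of all genes. Without case library d the count was 5, beside 6.08% of all genes. Against the treatment group 6 were called, 20% beside 5.3% of all genes. That count was 3 without case library b and 1 without case library d, beside 3.84% and 0.456% of all genes.

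Some further immune genes, F830016B08Rik and Igtp among them, were high in a single case heart. Gm4841, F830016B08Rik and Gm12185 ranked 1, 2 and 4 by SD in the case group among genes with a mean count of 100 or more (3.23, 3.00 and 2.38), and the deposited annotation places them under the cellular response to interferon-beta. Without case library c the log2 SD ratio of F830016B08Rik and Gm12185 against the treatment group was -0.44 and -0.23, in place of 1.03 and 1.19. The ratio of Gm4841 did not turn in this way, and lay between 0.77 and 1.75 whichever library was left out. Gm4841 was also among the 10 genes of highest SD in the control group. F830016B08Rik had 5.19, 3.02, 9.83 and 4.07 in the case libraries and 4.29 to 5.23 in the control libraries. Igtp, an interferon-induced GTPase, had 3.87, 3.18, 7.42 and 3.49 in the case libraries and 3.77 to 4.48 in the control libraries. MHC class I genes had 10 of 17 called in the case against the control group, 58.8% beside 18.4% of all genes, but 6 without case library b and 2 without case library c.

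Interferon-stimulated genes had the highest median SD of the function lists in the treatment group. Of 38 tested, 35 were called higher in the treatment than in the control group, where 1.3% of all genes were called, and 29 were called higher in the case than in the control group (18.4% of all genes). Median SDs were 0.15 in the control, 0.59 in the case and 1.02 in the treatment group. Scores of treatment libraries a to d were -0.13, 1.72, -0.31 and 1.13, with libraries b and d above every control and case heart and a and c close to control. Case libraries had -0.51, -0.98, 0.13 and -0.18. Without treatment library b 18 genes were called in the treatment against the control group, beside 0.42% of all genes. Without case library b 12 were called in the case group, beside 15.2% of all genes, and its median SD was then 0.37.

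The regulatory sequence of these genes is shown because they spread as a block. The interferon-stimulated response element (ISRE), a short motif known from promoters of antiviral genes, was searched as GAAA, any 2 bases and GAAA on both strands in the 250 bases before the first listed start of each gene in RefSeq (GRCm38.p6). It was found in 18 of the 30 genes of the list with a promoter entry (60%) and in 300 of 11084 promoters of all genes tested (2.71%). The list was made of genes known to answer interferons, so this share follows from how it was chosen and does not bear on the spread. The windows of 5 members follow, read 5′ to 3′ on the strand of the gene, with matches in capitals (TTTC, 2 bases and TTTC is the motif read on the other strand, and neighboring matches overlap in Isg15, Oas1a and Irgm1). Other short motifs were searched in the same way. GAS was found in 20% of the promoters of this list (5.95% of all). E-box and D-box were found in 29.4% and 5.88% of those of core clock genes (8.22% and 0.532% of all). GRE was found in 15.4% of those of glucocorticoid-induced genes (3.7% of all). A match describes letters and does not show that a factor binds there.
Ifit1, chr19:34640779-34640838, plus strand: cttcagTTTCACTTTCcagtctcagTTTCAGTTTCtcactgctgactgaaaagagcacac
Isg15, chr4:156200850-156200909, minus strand: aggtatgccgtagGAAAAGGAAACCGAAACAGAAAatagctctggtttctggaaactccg
Oas1a, chr5:120907526-120907564, minus strand: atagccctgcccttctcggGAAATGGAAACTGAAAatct
Igtp, chr11:58199497-58199555, plus strand: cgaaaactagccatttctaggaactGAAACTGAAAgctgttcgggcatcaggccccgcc
Irgm1, chr11:48871421-48871469, minus strand: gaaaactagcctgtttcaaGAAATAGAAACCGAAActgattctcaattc

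Ifit1, Isg15 and Oas1a, an RNA-binding restriction factor, a ubiquitin-like modifier and a 2'-5' oligoadenylate synthetase, were high in treatment libraries b and d. Ifit1 had 3.52, 3.81 and 3.68 in the control, 3.44, 2.34, 3.96 and 3.64 in the case and 3.70, 6.56, 3.37 and 5.72 in the treatment libraries. Its SD in the treatment group was 10.6 times that in the control group (adjusted p = 0.00048, and 8.74 times, adjusted p = 0.0092, without treatment library b). Isg15 had 1.24, 3.89, 0.66 and 2.81 and Oas1a had 1.60, 4.64, 1.89 and 3.72 in the treatment libraries. Irf7, the factor that amplifies the interferon response, was held at 4.16 to 4.18 in the control hearts and had 4.59, 7.23, 4.09 and 6.19 in the treatment libraries, an SD 109 times as large (adjusted p = 0.00012).

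Igtp and Irgm1 are GTPases induced mainly by interferon-gamma. Igtp had 5.74, 5.64, 4.04 and 6.07 in treatment libraries a to d, so library a was high as well, and Irgm1 had 5.38, 6.46, 4.60 and 5.93, with b and d highest as in Ifit1. Case library c was the highest case heart in both, at 7.42 and 6.04, above every control heart, while its Isg15 of 1.04 was below the control range of 1.34 to 1.67.

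The 5 genes with a called lower spread in the case than in the treatment group were Znfx1, Lgals9, Lgals3bp, Ifit2 and Oas2, and all are high in treatment libraries b and d. Oas2, a further oligoadenylate synthetase, had 3.37, 6.41, 4.04 and 5.66 in the treatment and 3.89, 3.83, 4.58 and 4.46 in the case libraries, an SD in the case group 0.274 times that in the treatment group (adjusted p = 0.045). Lgals3bp, a secreted galectin-3 ligand, had 5.21, 7.03, 4.76 and 6.41 against 5.54, 5.04, 5.63 and 5.51. Znfx1, an RNA helicase that senses viral RNA, had 6.47, 7.70, 6.57 and 7.04 against 6.59, 6.57, 6.67 and 6.68. None of the 5 was called without case library d, treatment library b or treatment library c. Among the 8 genes of the largest called SD ratio in the treatment against the control group, Irf7, Ddx58, Rnf213 and Adar encode an interferon regulator, the RNA sensor RIG-I, a large ubiquitin ligase and an RNA-editing enzyme, and Sparc and Nid1 are matrix genes.

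Genes of blood cells varied between treatment hearts at low levels. Platelet markers summed to 25.8 to 135.5 CPM in the treatment libraries, 12.3 to 13.9 in the control and 8.25 to 20.7 in the case libraries, and their scores were 2.24, 3.07, 3.70 and 4.63 in treatment libraries a to d. Their median SD was 1.16 in the treatment group and 0.665 in the control group, where counting error alone gave 0.564. Tubb1, the tubulin of platelets, had -2.97, 0.20 and -1.09 in the control and 1.79, 2.59, 3.53 and 4.79 in the treatment libraries. Neutrophil markers had scores of 3.32, 0.23, 1.13 and 2.31 in the treatment and 1.77 to 2.43 in the case libraries. S100a8, an alarmin of neutrophils, had 3.17, -1.92, 1.02 and 2.03 in the treatment libraries. When each library was left out in turn, 0 to 2 of the 10 platelet genes tested were called higher in the treatment than in the control group. The range of calls was the same for the 10 neutrophil genes. In these fits 0.42% (without treatment library b) to 2.88% (without control library b) of all genes were called, beside 1.3% over all libraries. No gene of either list was among those called lower in the case than in the treatment group. Erythroid markers had a median SD of 0.68 in the treatment and 0.47 in the case group, with 4 and 3 of 13 called against the control group (1.3% and 18.4% of all genes). The 4 became 0 and the treatment median 0.36 without treatment library b, and the case median was 0.21 without case library b.

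Control hearts had their own variable genes. With a mean count of 100 or more, the highest SDs were those of Tubb1 (1.59), Cyp26b1 (1.21) and Hp (1.15), the last 2 encoding an enzyme that clears retinoic acid and the hemoglobin-binding haptoglobin. Tubb1 had only 2, 32 and 13 counts in the control libraries and passed the mean count through the treatment libraries, with 105 to 817. Cyp26b1 had 3.43, 3.97 and 5.74 in the control libraries. Myl7 and Myl4, the myosin light chains of atrial muscle, were also among the 10, with 2.36, 3.43 and 3.99 and with 3.87, 4.61 and 5.40. In the case group both were lowest in library a, at -0.01 and 1.18, against 2.45 to 3.78 and 3.74 to 4.93 in the other 3. Atrial markers together summed to 349.3 to 451.4 CPM in the control, 259.5 to 558.3 in the case and 488.1 to 687.4 in the treatment libraries, and had 8 of 10 called in the case against the control group, 80% beside 18.4% of all genes (5 without case library a and 4 without case library d). The share of atrium in each piece of tissue was not measured, and its part in these spreads was not tested. Dkk3, an atrial secreted protein of the Dickkopf family, was the only gene called lower in the treatment than in the control group, with 3.37, 4.53 and 4.62 in the control and 4.45, 4.47, 4.61 and 4.67 in the treatment libraries (0.152 times, adjusted p = 0.029), where control library a was the low one. It was not called without any 1 of the treatment libraries (adjusted p from 0.055 to 0.091), and without control library a its log2 SD ratio was 0.82 in place of -2.72. Prg4, the lubricating proteoglycan, was the only gene called lower in the case than in the control group, with 2.87, 4.06 and 3.95 in the control and 5.69, 5.70, 5.62 and 5.77 in the case libraries (0.0926 times, adjusted p = 0.03). It was not called without any 1 of the case libraries (adjusted p from 0.066 to 0.078), and without control library a its log2 SD ratio was -0.43 in place of -3.43, with an adjusted p of 1. Mesothelial and epicardial markers, from the surface layer of the heart, had scores of 1.21, -1.30, 0.58 and 0.66 in the case and -0.23, 0.14, 0.66 and -0.73 in the treatment group, and ranged from -0.38 to 0.21 in the control libraries. Their median SD in the case group was 0.49 without case library b, below the 0.68 of the treatment group.

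Cardiomyocyte markers had the lowest median SD of the lists with 10 or more genes in the case group (0.15) and 0.07 in the control and 0.12 in the treatment group. Mybpc3, the myosin-binding protein of the thick filament, had 11.72 to 11.97 in the control, 11.66 to 11.78 in the case and 11.70 to 11.95 in the treatment libraries. Mitochondrial ribosomal proteins (0.15), cytosolic ribosomal proteins (0.16), nuclear genes of the respiratory chain (0.18) and glycolysis genes (0.19) also lay below the all-gene median of 0.24 in the case group. Which list was lowest depended on the libraries, since without case library d the respiratory chain had 0.08 and the mitochondrial ribosomal proteins 0.10, below the 0.13 of cardiomyocyte markers. Of 83 respiratory chain genes 13 were called against the control group, a share of 15.7% beside 18.4% of all genes, and the count was 0 without case library d, 2 without control library c, 22 without case library c and 51 without control library b. Ldha, lactate dehydrogenase, had 8.97 to 9.03 in the case libraries.

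The sarcomere list, below the all-gene median, still held variable members. Among 33 sarcomere and Z-disc genes the median SD was 0.22 in the case group, and 18 were called against the control, 54.5% beside 18.4% of all genes (11 without case library d), and 6 against the treatment group, 18.2% beside 5.3% (2 without case library d). Lmod2, a leiomodin that sets thin filament length, had 8.88, 8.81 and 8.88 in the control, 10.40, 10.41, 8.89 and 8.60 in the case and 8.46 to 8.59 in the treatment libraries, an SD 15.1 times that of the treatment group (adjusted p = 0.0016, and 0.017 without case library d). Case libraries a and b were high and c and d were at the level of the other hearts. Ion channels, adrenergic receptors and kinases, and endothelial markers lay above the all-gene median, with median SDs of 0.32, 0.28 and 0.32 in the case group (the last 0.21 without case library d). Kcnj5, a channel gated by G proteins in atrial and nodal cells, had 5.26, 5.63, 6.63 and 6.35 in the case and 6.71 to 6.89 in the treatment libraries. Adrb1, the beta-1 adrenergic receptor, had 2.41, 3.28, 4.24 and 4.19 in the case and 4.53 to 4.83 in the treatment libraries (6.46 times, adjusted p = 0.0089, and 0.037 without case library d). Aplnr, the apelin receptor of endothelium, had 1.08, 0.79, 2.67 and 4.59 in the case and 6.12 to 6.58 in the control libraries. Of 10 endocannabinoid genes 1 was called in the case against the control group, 10% beside 18.4% of all genes. Cnr2, which encodes CB2R, had 0.54, 0.52 and 0.28 as SDs in the case, control and treatment group at about 36 counts per library.

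Mitosis genes had scores of -2.59 to -1.81 in the case and -1.98 to -1.40 in the treatment libraries. Levels between groups were not tested here. They had a median SD of 0.48 in the case and 0.44 in the treatment group, where counting error alone gave 0.29 and 0.27, and 2 of 46 were called in the case against the control group, 4.35% beside 18.4% of all genes. Replication-dependent histones, whose messages end in a stem loop, had scores of -0.32, -0.95, -1.47 and -1.20 in the case and -0.95, -0.98, -1.57 and -1.07 in the treatment libraries. Of 50 histones 15 were called in the case against the control group, 30% beside 18.4% of all genes, but 6 without case library a, 8 without case library d and 23 without control library a. H1f2 and H1f4, linker histones, were highest in case libraries a and b, at 9.04 and 8.61 and at 5.65 and 5.35, and the SD of H1f2 was 13.6 times that of the treatment group (adjusted p = 0.0016, and 0.014 without case library d).

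Annotated terms of the Gene Ontology, taken from the deposited table, were ranked by the SD of their genes relative to genes of like level in the same group. Of 1698 terms with 20 to 300 genes, the highest in the case group was extracellular matrix structural constituent conferring tensile strength (median SD 0.89 over 32 genes). Of its genes, 23 were called against the control group, 71.9% beside 18.4% of all genes. Next came extracellular matrix binding (0.49 over 27), fibronectin binding (0.55 over 29), extracellular matrix structural constituent (0.49 over 92) and cellular response to interferon-beta (0.58 over 42). Without case library d the medians of these terms, from the highest on, were 0.555, 0.305, 0.431, 0.373 and 0.592. That of all genes was then 0.192. The treatment group was led by cellular response to interferon-beta (0.81), the tensile strength term (0.41), negative regulation of viral genome replication (0.62 over 33) and response to type II interferon (0.48 over 23). The control group was led by peroxidase activity (0.16 over 23), cellular response to interferon-beta (0.18) and I band (0.13 over 24). Lowest in the case group were positive regulation of ubiquitin-protein transferase activity (0.13 over 21) and intra-Golgi vesicle transport (0.10 over 23), and in the treatment group the 2-oxoglutarate-dependent dioxygenases (0.10 over 21) and the cytoplasmic dynein complex (0.11 over 23). Terms of which most genes lay in a term already listed were passed over.

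The largest SD ratios belong to genes that were very steady in the other group, so they say as much about that group. In the case against the treatment group Mafk, a small Maf factor that pairs with NRF2, had 6.99, 7.12, 6.04 and 5.56 in the case and 5.23, 5.26, 5.20 and 5.23 in the treatment libraries (29.4 times, adjusted p = 0.003). Cbx5, the heterochromatin protein HP1-alpha, had 6.79, 7.0, 7.24 and 7.60 against 7.5 to 7.53. In the case against the control group Clip1, a linker of vesicles to microtubules, had 9.75, 9.89, 8.68 and 8.55 against 8.54 to 8.55, and Hif3a, an inhibitor of the hypoxia response, had 4.15, 4.10, 4.05 and 1.92 against 1.93 to 1.95. Case libraries a to c lay together in Hif3a, and without case library d its SD of 0.05 was not called against control. Slc15a2, a peptide transporter, had the highest SD of the treatment group among genes with a mean count of 100 or more (2.43), with -0.87, 3.59, 4.69 and 3.21 in the treatment and 3.30 to 3.51 in the control libraries. Cdo1, the cysteine dioxygenase that starts cysteine breakdown, had 5.36, 4.99, 3.55 and 0.97 in the case libraries and 0.15 to 0.94 in all the others.

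Some genes were nearly constant between animals in every group. Among genes with a mean count of 1000 or more, the 10 with the lowest value of their largest SD were Uba1, Cog3, Mff, Tubgcp3, Tnpo3, Grb10, Zcchc14, Ap2m1, Copa and Nup98. Uba1, the enzyme that activates ubiquitin, had 8.14, 8.14, 8.15 and 8.14 in the case libraries and 8.12 to 8.21 in the others. Copa and Cog3 belong to coats and tethers of Golgi transport, Ap2m1 to the clathrin adaptor of endocytosis and Nup98 and Tnpo3 to nuclear pores and import. The largest of their SDs was 0.051, that of Nup98 in the case group.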

How the data were processed

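Raw read counts per gene, deposited by the authors in a single table with a count column for each of 11 paired-end libraries, were used as they stand. Tools listed in the submitters' processing notes are cutadapt, TopHat2 and HISAT2, with mm10 as the genome build. The counting program, its annotation and all versions were not given in the sources used here. Gene lengths and annotation terms come from the same deposited table, and 11 other per-library columns of normalized values were not used. The study's supplementary table names the case and treatment columns, and the control group is the remaining 3 columns. The letters a to d are those of the columns and do not match numbered replicates in the labels.

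Genes passing edgeR 4.0.16 filterByExpr were kept (14050 of 17471 with a count), and log2 CPM was computed with TMM factors and a prior count of 2 in R 4.3.3. The within-group variances of 2 groups were compared as a ratio whose denominator was moderated over genes with limma 3.58.1 (squeezeVar, trend on the mean level). P-values of the F distribution were doubled for both directions and adjusted by Benjamini-Hochberg over all 14050 genes, with a threshold of 0.05. This procedure was tested on simulated data with 200 genes changed in the case group. At a 3-fold SD change it recovered 4.5% of them against the treatment and 3.5% against the control group. At 6-fold it recovered 62% and 52%. False calls were 2 of 11 and 0 of 7 at 3-fold, and 11 of 135 and 5 of 109 at 6-fold. In treatment against control, where no simulated gene was changed, 1 gene was called at 3-fold and 3 at 6-fold. Of unchanged genes, 4.4% to 5.08% had a p under 0.05, and 9.19% to 10.1% by the limma test of absolute deviations. Replicates are separate mice per the study's methods. No pair of libraries within a group agreed within counting noise (chi-square per degree of freedom of 7.73 or more). Distances were compared by exact permutation tests. Gene lists are described by counts and medians without set tests. Names of annotated terms were assigned from their identifiers.

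Named genes were, in each group, the 10 of highest SD with a mean count of 100 or more, in each comparison and direction the 8 called genes of largest SD ratio with that mean count, of each list up to 4 members of highest SD and the member of lowest SD in the group where the list's median SD is highest, and the 10 steadiest genes with a mean count of 1000 or more. Fkbp5, Myh6, Tnnt2, Ttn, Col1a1, Col1a2 and the genes whose promoters are printed were named outside this rule, the last chosen after their values were seen. Members, lists and tests were chosen with earlier results of these data known. Other normalizations, prior counts, filters, a variance stabilizing transformation (DESeq2 1.42.0), other tests and leaving out each library were tried as alternatives. Promoter sequences are from RefSeq on GRCm38.p6. Figures were drawn with matplotlib 3.10.9.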

Additional observations from a re-analysis of the deposited data

Results flagged for a closer look

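Of 260 sets of values of 1 group of 4 libraries, 11 had a highest or lowest library set apart from the other 3, where chance gives about 1 in 20. Their number is thus no larger than chance gives. In the case group the score of hypoxia targets was 0.289 in library b, and those of endothelial cells and of macrophages and monocytes were -0.118 in library d and -0.312 in library b. The log2 CPM of Hif3a was 1.92 in case library d, and that of Irf7 was 3.40 in case library b. Agtpbp1 had 8.09 in case library d and Tubb4b had 7.18 in case library c. In the treatment group the score of nuclear respiratory chain genes was 0.232 and that of adrenergic and muscarinic receptors and kinases was 0.0804, both in library a. The score of DNA replication genes was -0.357 in treatment library d, and Zranb1 had a log2 CPM of 6.24 in treatment library d.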

How the results depend on the processing

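No paired analysis was possible because nothing links the letter of a count column with a numbered replicate. The direction of the group medians, distances and coefficients of variation, highest in the case group, was the same with DESeq2 size factors and with prior counts of 0.5 and 5, which moved only the count lower in case than in control, to 2 with a prior count of 5. With no filter the treatment median SD was 0.1637, and calls were 514 lower in case than in treatment, 1101 higher and 421 lower in case than in control, and 707 higher and 454 lower in treatment than in control. With a mean count of 100 or more the median SDs were 0.09793, 0.1975 and 0.1217 in control, case and treatment, the coefficients of variation 0.07975 in control and 0.1293 in treatment, the shares on the first axis 62.35% and 47.19%, and 1 gene was lower in case than in treatment. With the DESeq2 variance stabilizing transformation the medians were 0.08339, 0.159 and 0.1023, with 13 genes lower in case than in treatment and 2 lower in treatment than in control. The plain F test called 1 gene higher and 1 lower in case than in treatment, 5 higher in case than in control and 4 higher in treatment than in control. The limma test of absolute deviations called 34 lower in case than in treatment, 638 higher and 17 lower in case than in control, and 0 higher and 0 lower in treatment than in control.

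Leaving out each library in turn gave median SDs of 0.08015 to 0.1186 in control, 0.1918 to 0.244 in case and 0.1262 to 0.1458 in treatment. Coefficients of variation were 0.07153 to 0.1005 in control and 0.21 to 0.2867 in case. Shares on the first axis were 56.22% to 100% in control, 58.47% to 75.36% in case and 41.77% to 60.49% in treatment, since fewer libraries leave fewer axes. Calls in case against treatment were 64 to 963 higher and 0 to 9 lower, in case against control 854 to 4093 higher and 0 to 3 lower, and in treatment against control 59 to 404 higher and 0 to 5 lower. Among named genes called over all libraries, the lone reversal was that of Dkk3 in treatment against control, whose log2 SD ratio, -2.72 over all libraries, ran from -3.058 without control library b to 0.8156 without control library a. The log2 SD ratios of F830016B08Rik and Gm12185 in case against treatment, not called over all libraries, were -0.44 and -0.23 without case library c. Over all alternatives, named genes kept direction and side of the threshold in 722 fits, lost the call in 132 and gained it in 10. The cause of these moves was not tested. With 3 or 4 mice per group an SD is imprecise. Counts over all genes depended most on case library d in both comparisons of the case group and on treatment library b in treatment against control, and those of single lists often on other libraries.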
